A study of Mus musculus with 30 samples.

Results

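The transcripts described here belong to 10 genes that are best known from the mouse oocyte, 5 of which encode transcription factors (*Sohlh1*, *Sohlh2*, *Figla*, *Lhx8* and *Nobox*) and 5 of which encode proteins of the subcortical maternal complex or its surroundings (*Khdc3*, *Ooep*, *Nlrp5*, *Tle6* and *Padi6*). They were taken by symbol from a count matrix of 25400 genes, in which 9 of the 10 had a row. *Lhx8* was not analysed here. The members were chosen by values of these data, since *Sohlh1* and *Khdc3* are on the list as the largest rises in neuronal progenitor cells (NPCs) without MBD3 against wild type (WT). Each comparison of the members with WT or *Mbd3* KO libraries is therefore given as a description without a test. Tests were run only between lines that this choice did not use. Some of these lines resemble WT or *Mbd3* KO, so their tests are not free of the choice. Of the 9 genes, 7 passed a filter on low counts and entered these tests, while *Figla*, with 16 reads over 24 libraries, and *Nlrp5*, with 152 reads, did not.

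Poly(A) RNA was measured in NPCs that were derived in vitro from mouse embryonic stem cells (ESCs) of the line HA36CB1. There were 24 libraries, with 3 per line. The 8 lines comprised WT, *Mbd3* KO, and 6 lines that all carry the *Mbd3* deletion and express a construct from the CAG promoter at a recombination site. These constructs were MBD3a (the full-length isoform), MBD3ΔMBD (without the MBD domain), MBD2a (the full-length isoform), MBD2aΔGR (MBD2a without the glycine-arginine stretch), MBD2aR181C (MBD2a with an exchanged residue in its MBD domain) and MBD2t (a shorter isoform that lacks the coiled coil). The columns number the residue of MBD2aR181C differently from the labels, and they were taken as this line because it was the only labelled MBD2a line with an arginine-to-cysteine exchange. Libraries of a line came from individually derived clones, except for MBD2t, where all 3 are repeats of a single clone and their spread leaves out differences between clones. MBD2 and MBD3 are alternative subunits of the NuRD complex, a remodeler and deacetylase of nucleosomes that keeps genes silent.

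Library totals lay between 27993858 and 49392806 reads, so that 3 reads, the floor used here, stood for 0.0607 to 0.115 counts per 1000000 reads (CPM, on library sizes scaled by TMM), which covers counting error only. Libraries are named by their column numbers, s01 to s24. *Mbd3* was at 149 to 157 CPM in WT, at 34.2 to 73.8 CPM in *Mbd3* KO and at 423 to 496 CPM in MBD3ΔMBD libraries. *Mbd2* reads, which could include those of a construct, were at 67.0 to 87.2 CPM in MBD2a libraries, against 64.2 to 70.9 CPM in *Mbd3* KO libraries, which carry no construct, 36.5 to 47.3 CPM in MBD3a and 253 to 700 CPM in MBD2aΔGR, MBD2aR181C and MBD2t libraries. The MBD2a library s15, at 67.0 CPM, lay within the range of *Mbd3* KO. The part of this difference in *Mbd2* reads in the results on MBD2a was not tested. By western blot of ESC lines, the study reports equal protein levels of the MBD2a and MBD2aΔGR constructs. The reads given here are RNA of NPCs. Pairs of libraries within a line differed by 10.4 to 303 units of chi-square per gene, while the MBD2t pairs differed by 3.42 to 6.52, where sampling noise alone would give about 1.

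In the ovary, SOHLH1 and SOHLH2 are basic helix-loop-helix (bHLH) factors of the germ line that are needed for young oocytes to grow, and SOHLH1 acts upstream of the homeobox genes *Nobox* and *Lhx8*. FIGLA, another bHLH factor, activates the genes of the zona pellucida. The subcortical maternal complex lies beneath the membrane of the egg and the early embryo and holds NLRP5 (MATER), OOEP (FLOPED), TLE6 and KHDC3 (FILIA), while PADI6 is needed for the cytoplasmic lattices of the egg. Loss of its members from the egg halts the embryo after its first cleavages or lowers its fidelity of chromosome segregation. KHDC3 is also known from ESCs, where it takes part in the maintenance of genome stability.

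*Sohlh1*, *Tle6*, *Sohlh2* and *Khdc3* were each higher in *Mbd3* KO than in WT, the contrast of the choice, without sharing a single pattern over the lines. The promoters of these 4 members are printed because they differ in sequence. They are RefSeq promoters (table build GRCm38.p6, 250 bases before to 50 after the start), and each matched its chromosome of NCBIM37 (mm9), the build of the files, once. Capitals mark CACGTG, the palindromic E-box of bHLH factors, which reads alike on both strands.
*Sohlh1*, chr2:25702719-25703018, minus strand: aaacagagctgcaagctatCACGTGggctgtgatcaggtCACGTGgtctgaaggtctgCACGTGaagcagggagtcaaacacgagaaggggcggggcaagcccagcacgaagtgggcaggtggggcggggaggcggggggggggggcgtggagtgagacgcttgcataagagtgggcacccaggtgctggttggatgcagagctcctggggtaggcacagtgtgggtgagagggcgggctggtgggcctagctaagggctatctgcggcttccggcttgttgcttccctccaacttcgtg
*Tle6*, chr10:81063596-81063895, minus strand: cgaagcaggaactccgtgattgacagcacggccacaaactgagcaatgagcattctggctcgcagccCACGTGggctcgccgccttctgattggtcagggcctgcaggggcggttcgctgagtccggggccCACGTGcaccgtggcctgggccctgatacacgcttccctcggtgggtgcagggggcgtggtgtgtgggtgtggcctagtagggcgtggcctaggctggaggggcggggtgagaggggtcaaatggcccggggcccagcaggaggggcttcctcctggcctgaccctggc
*Sohlh2*, chr3:54985716-54986015, plus strand: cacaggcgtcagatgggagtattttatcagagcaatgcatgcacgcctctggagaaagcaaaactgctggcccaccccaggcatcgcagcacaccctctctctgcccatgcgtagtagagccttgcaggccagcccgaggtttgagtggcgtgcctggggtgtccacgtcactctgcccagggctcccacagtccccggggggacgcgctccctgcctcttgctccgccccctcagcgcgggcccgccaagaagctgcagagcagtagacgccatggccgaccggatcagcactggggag
*Khdc3*, chr9:72949955-72950254, plus strand: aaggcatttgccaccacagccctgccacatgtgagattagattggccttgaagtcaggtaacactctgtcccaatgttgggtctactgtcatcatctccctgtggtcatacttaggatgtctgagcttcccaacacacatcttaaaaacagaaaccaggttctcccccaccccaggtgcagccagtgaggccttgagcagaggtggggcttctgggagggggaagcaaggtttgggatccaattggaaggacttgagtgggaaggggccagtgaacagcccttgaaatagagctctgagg
The *Sohlh1* promoter held 3 CACGTG, at 231, 211 and 192 bases before the start, and the first of the 2 *Tle6* promoters held 2, at 183 and 119 bases before it. The other promoters of the 9 members held none. Among all 32851 promoters of the table, 7.15% held at least 1, 0.594% at least 2 and 0.0883% (29 promoters) at least 3. CpG dinucleotides, to which MBD2 binds when they are methylated, numbered 14 in the *Sohlh1*, 17 in the *Sohlh2* and 18 in this *Tle6* promoter. The median over the table was 7, and 63.7%, 68.6% and 70.3% of promoters held fewer than these. The *Figla*, *Ooep* and *Nobox* promoters were similar, with 16, 15 and 13. There were 2 in *Padi6*, 1 and 9 in the *Nlrp5* promoters and 3 in the other *Tle6* promoter. The *Khdc3* promoter had none, as did 5.43% of all promoters. The homeodomain cores TAATTG and TAATTA, searched on both strands and held by 8% and 5.29% of promoters, occurred in *Ooep* and *Padi6* (TAATTG) and in 1 of the 2 *Nlrp5* promoters (TAATTA). These matches are letters in a window and say nothing of binding.

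*Sohlh1* (ENSMUSG00000059625.6, mm9 chr2:25698515-25702768, minus strand) was nearly silent in 5 lines, high in 2 and in between in MBD2a. The WT libraries s01 to s03 gave 0.376, 0.660 and 0.438 CPM, from 14, 24 and 18 reads. In the *Mbd3* KO libraries s04 to s06 the level was 144, 144 and 125 CPM, from 5023, 6490 and 4728 reads. This was a described log2 difference of 8.12 (SE 0.41), which ranked first of the 16582 genes tested, and the groups lay far apart. MBD3a libraries gave 0.522, 0.615 and 0.486 CPM, and MBD3ΔMBD libraries 0.917, 0.374 and 0.146 CPM. MBD2aΔGR libraries gave 0.123, 0.506 and 0.415 CPM, and MBD2aR181C libraries 0.276, 0.912 and 0.635 CPM. All 4 of these lines overlapped WT. The MBD2a libraries s13 to s15 stood at 8.40, 9.63 and 15.6 CPM and the MBD2t libraries s22 to s24 at 95.4, 120 and 167 CPM. MBD2t overlapped *Mbd3* KO, and MBD2a overlapped no other line.

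*Khdc3* (ENSMUSG00000092622.1, mm9 chr9:72949643-72952250, plus strand) had the same 3 lines at the top, with MBD2t before *Mbd3* KO. Its 3 WT libraries gave 0.725, 0.908 and 1.27 CPM and the *Mbd3* KO libraries 125, 123 and 120 CPM, a described log2 difference of 6.97 (SE 0.54). When genes whose log2 CPM averaged 1 or more were ranked by this difference, *Sohlh1* and *Khdc3* led, and *Aldh3b2* at 5.55 and *Fga* at 5.51 were the next, just outside the choice. With no minimum level *Khdc3* ranked 15 of 16582. MBD2a libraries gave 16, 24.1 and 23.2 CPM and MBD2t libraries 161, 184 and 228 CPM, the latter all above *Mbd3* KO. In the other lines *Khdc3* lay between 0.278 and 4.29 CPM, with the highest value in the MBD2aR181C library s20. Of the exonic bases of *Khdc3*, 161 are shared with *Gm20509* on the same strand, which has no row in the matrix, so its reads are uncertain by that part.

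**Figure D1:**
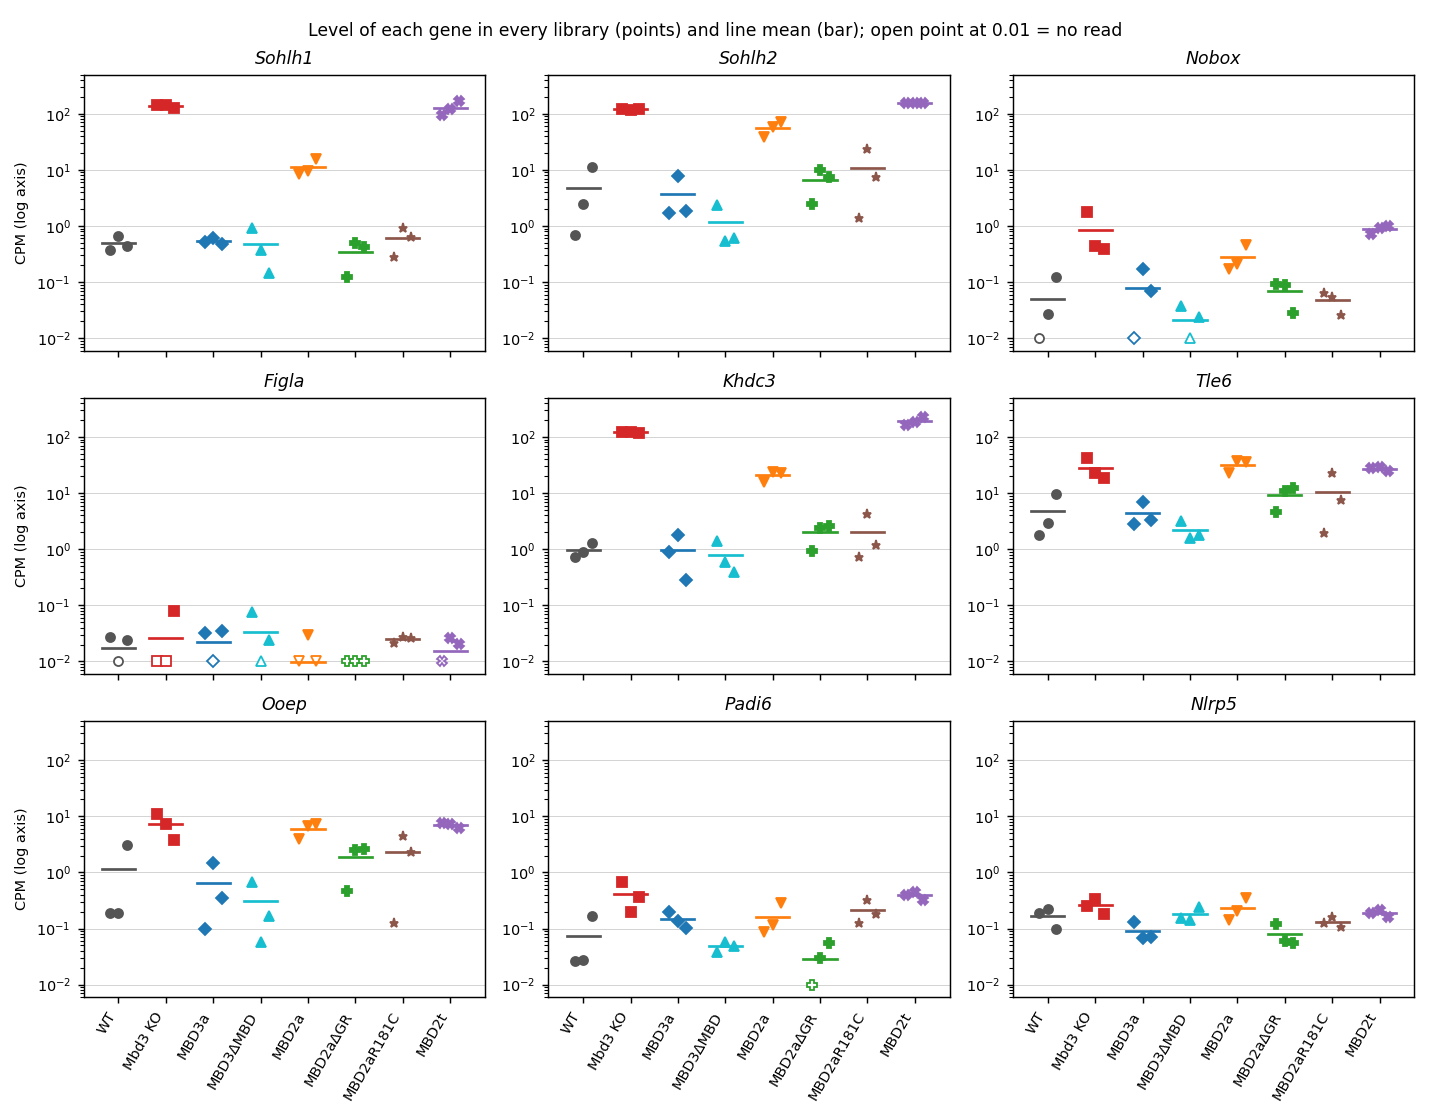
CPM on a log axis of the 9 members with a row, for the 3 libraries of each of the 8 lines (points) with the line mean (bar). Open points at 0.01 stand for libraries with no read. *Sohlh1* and *Khdc3* have a gap between MBD2a (8.40 to 15.6 and 16 to 24.1 CPM) and both *Mbd3* KO and MBD2t, which *Tle6* and *Ooep* do not have.

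*Sohlh2* (mm9 chr3:54985950-55013879, plus strand), the partner paralog of *Sohlh1*, was more variable where it was low. WT libraries gave 0.698, 2.42 and 11.3 CPM, MBD3a libraries 1.70, 7.69 and 1.87 CPM, and MBD2aR181C libraries 1.38, 23.7 and 7.38 CPM. The levels of MBD3ΔMBD lay between 0.546 and 2.33 CPM and those of MBD2aΔGR between 2.43 and 10.0 CPM, and these 5 lines overlapped from neighbor to neighbor. MBD2a libraries stood above them at 38.3, 59.2 and 70.9 CPM. *Mbd3* KO at 121, 116 and 122 CPM and MBD2t at 156, 154 and 157 CPM followed, without overlap between any of the top 3 lines. The described log2 difference of *Mbd3* KO to WT was 4.61 (SE 0.87). All 7 tested members were higher in each *Mbd3* KO library than in each WT library, as were 31.1% of all genes, but the list was chosen for this contrast.

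The other transcription factors were scarce. *Nobox* (mm9 chr6:43253673-43259561, minus strand), a homeobox gene of the oocyte, reached 1.74, 0.443 and 0.397 CPM in *Mbd3* KO, from 61, 20 and 15 reads, and 0.728, 0.928 and 1.01 CPM in MBD2t. MBD2a libraries had 6, 7 and 18 reads of it, or 0.173, 0.206 and 0.459 CPM. In the 5 other lines no library held more than 5 reads. *Figla* had at most 3 reads in a library and none in MBD2aΔGR. No library exceeded its floor for this gene, so that a difference was not detectable at this depth.

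Among the genes of the subcortical complex, *Tle6* (mm9 chr10:81053649-81063818, minus strand), a corepressor-like protein of the Groucho family, was readily detected in each library. WT libraries gave 1.77, 2.97 and 9.54 CPM and *Mbd3* KO libraries 42.2, 22.5 and 18.4 CPM. MBD2a libraries at 22.8, 36.6 and 35.2 CPM and MBD2t libraries at 27.6, 29.3 and 24.6 CPM were within the range of *Mbd3* KO. MBD2aR181C spread from 1.91 to 22.4 CPM, MBD2aΔGR from 4.61 to 12.2, MBD3a from 2.77 to 7.08 and MBD3ΔMBD from 1.58 to 3.17 CPM. Unlike *Sohlh1*, *Tle6* had its highest line mean in MBD2a (31.5 ± 7.63 CPM, SD, n = 3), which overlapped both *Mbd3* KO and MBD2t.

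*Ooep* (mm9 chr9:78223916-78226532, minus strand), which encodes an RNA-binding-like protein of the complex, was lower but had the same 3 lines at the top as *Tle6*. WT libraries gave 0.188, 0.193 and 3.04 CPM, *Mbd3* KO libraries 10.8, 7.33 and 3.78 CPM, MBD2a libraries 4.00, 6.81 and 7.39 CPM and MBD2t libraries 7.76, 7.34 and 6.21 CPM. The 3 highest lines overlapped. MBD2aR181C ranged from 0.127 to 4.37 CPM, its highest library within the range of MBD2a. MBD2aΔGR lay between 0.461 and 2.66, MBD3a between 0.0978 and 1.47 and MBD3ΔMBD between 0.0575 and 0.688 CPM.

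*Padi6* and *Nlrp5* stayed near the floor. *Padi6*, a member of the peptidylarginine deiminase family (mm9 chr4:140283270-140298558, minus strand), had at most 24 reads in a library and line means between 0.0284 CPM in MBD2aΔGR and 0.419 CPM in *Mbd3* KO. *Nlrp5* (mm9 chr7:24170908-24226941, plus strand), the NLR-family scaffold of the complex, had at most 15 reads, and its line means between 0.0793 and 0.258 CPM each overlapped the next in order. Among the genes of the complex, high levels were thus seen for *Khdc3* and, to a lesser extent, *Tle6* and *Ooep*, while *Nlrp5* did not rise above 0.357 CPM in any library.

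Levels can be compared between genes only per length, here as CPM per kilobase of exons. In *Mbd3* KO, *Sohlh1* was at 107, *Khdc3* at 59.7 and *Sohlh2* at 50.5 CPM per kilobase, while *Tle6* was at 8.97, *Ooep* at 3.42, *Nobox* at 0.453, *Padi6* at 0.165, *Nlrp5* at 0.0713 and *Figla* at 0.0348. In MBD2t the first 3 stood at 99.0, 93.0 and 66.0. In MBD2a the order differed, with *Sohlh2* at 23.7 above *Khdc3* and *Tle6* at 10.3 and 10.2 and *Sohlh1* at 8.69 CPM per kilobase.

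The first tested comparison asked whether MBD2a, in the absence of MBD3, kept these genes as low as MBD3a did. It did not for 5 of the 7 tested members, which were called higher in MBD2a by the quasi-likelihood F test of edgeR (adjusted p under the threshold and a log2 fold change over 1), where 16% of all genes tested were called higher. The log2 fold changes were 4.42 (SE 0.53) for *Khdc3*, 4.37 (SE 0.41) for *Sohlh1*, 3.90 (SE 0.87) for *Sohlh2*, 3.26 (SE 0.97) for *Ooep* and 2.85 (SE 0.68) for *Tle6*. Adjusted p-values of edgeR ran from 6.81e-07 for *Sohlh1* to 0.00876 for *Ooep*. On a linear scale these were 21.4-fold for *Khdc3*, 20.6-fold for *Sohlh1* and 7.21-fold for *Tle6*. *Nobox* had a log2 fold change of 1.81 (SE 0.87) with an edgeR adjusted p = 0.0804 (called without the MBD3a library s08, at 2.97), and *Padi6* one of 0.18 (SE 0.63) with an adjusted p = 0.828. In 6 of the 7 genes every MBD2a library was above every MBD3a library, as in 29.4% of all genes. The median over the 7 was 3.26, against -0.01 over all genes.

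In MBD2t against MBD3a the 7 members that passed the filter were called higher, where 17.5% of all genes were. *Nobox* and *Padi6* passed it through the lines in which they were high, MBD2t among them, so this count over the members supports nothing by itself. In a fit of only MBD2a and MBD3a 5 members passed. *Sohlh1* had a log2 fold change of 7.87 (SE 0.41, edgeR adjusted p = 1.98e-10), or 234-fold, and *Khdc3* one of 7.60 (SE 0.56, adjusted p = 2.03e-08), or 194-fold. *Sohlh2* followed with 5.38 (SE 0.91), *Ooep* with 3.48 (SE 0.96), *Nobox* with 3.44 (SE 0.68), *Tle6* with 2.63 (SE 0.67) and *Padi6* with 1.38 (SE 0.51, adjusted p = 0.023). The 7 genes did not overlap between these lines, as was the case for 36.4% of all genes with all libraries higher. *Padi6* lost its call under 6 of 17 alternatives, among them the leaving out of the MBD3a library s08 (edgeR adjusted p = 0.0603) or s09 (0.088) or of the MBD2t library s23 (0.0555). Because both comparisons use the MBD3a libraries, they are not independent of each other. By the same edgeR test, 571 of 16582 genes had an unadjusted p under 0.05 in MBD2t against *Mbd3* KO. There were 293 in MBD3a against WT and 10636 in *Mbd3* KO against WT. MBD2t against MBD3a thus comes close to the contrast of the choice, and its high values follow in part from that choice.

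The members separated when MBD2t was compared directly with MBD2a. *Sohlh1* was higher in MBD2t by 3.51 (SE 0.30, edgeR adjusted p = 6.53e-07) on the log2 scale, or 11.4-fold, and *Khdc3* by 3.18 (SE 0.42, adjusted p = 9.4e-05), or 9.06-fold. *Nobox* was the third of the 3 members called, by 1.62 (SE 0.48, adjusted p = 0.0397), but its call held under 6 of 16 alternatives and was lost, for instance, without the MBD2a library s13 (edgeR adjusted p = 0.184) or s14 (0.155) or the MBD2t library s22 (0.0611), s23 (0.111) or s24 (0.142). Of all genes 3.14% were called higher, and 17.9% were higher in each MBD2t library, as were 5 of the 7 members. *Nobox* and *Padi6* are among these 5 and passed the filter through the lines in which they were high, MBD2t among them. The counts over the members therefore support nothing by themselves here either. *Sohlh2* differed by 1.47 (95% interval -0.07 to 3.02, edgeR adjusted p = 0.277, but 0.0154 in a fit of these lines alone) and *Padi6* by 1.20 (0.24 to 2.15, adjusted p = 0.131). *Ooep* differed by 0.22 (-1.24 to 1.68) and *Tle6* by -0.22 (-1.46 to 1.03), both with intervals that include equal levels as well as a 2-fold change. On the log2 scale, from the mean of MBD3a to that of MBD2t, MBD2a lay at 54.8% of the way for *Sohlh1* and 59.6% for *Khdc3*, at 73.5% for *Sohlh2*, at 52% for *Nobox*, at 93.4% and 107% for *Ooep* and *Tle6*, and at 2% for *Padi6*.

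**Figure D2:**
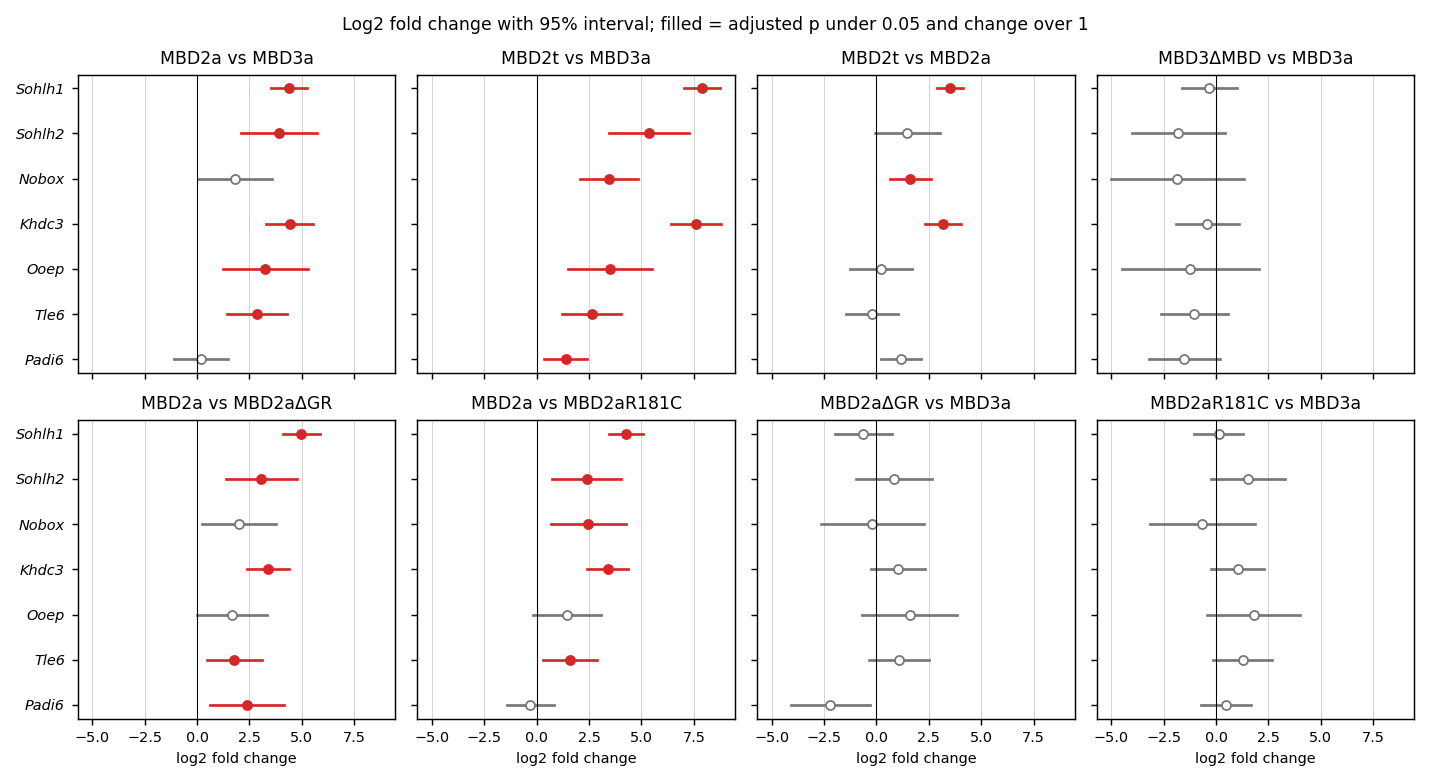
Log2 fold changes (points) with 95% intervals (lines) of the 7 tested members in the 8 tested comparisons, filled and red where called. In MBD2t against MBD2a, *Sohlh1* at 3.51 and *Khdc3* at 3.18 stand to the right of 0, while *Ooep* at 0.22 and *Tle6* at -0.22 lie on it.

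MBD2a was also compared with its variants, without the glycine-arginine stretch or with an exchanged residue in the MBD domain. The variants had more *Mbd2* reads than MBD2a. Their neural marker sums were higher too, with means of 1328 (MBD2aΔGR) and 2007 CPM (MBD2aR181C) against 188 CPM. The part of the domains, the *Mbd2* reads and the cell types in the differences of the members was not tested. Against MBD2aΔGR, 5 of the 7 were called higher in MBD2a, against 10.6% of all genes. These were *Sohlh1* with a log2 fold change of 4.98 (SE 0.43, edgeR adjusted p = 1.67e-06), *Khdc3* with 3.39 (SE 0.48), *Sohlh2* with 3.07 (SE 0.82), *Padi6* with 2.38 (SE 0.86, adjusted p = 0.0338, from 3 to 11 reads in MBD2a and 0 to 2 in MBD2aΔGR) and *Tle6* with 1.77 (SE 0.63, adjusted p = 0.0359). *Ooep* had 1.67 (SE 0.80) with an adjusted p = 0.11, and *Nobox* 2.01 (SE 0.86) with an adjusted p = 0.0697. *Tle6* and *Padi6* each lost the call under 5 alternatives, and the count dropped to 3 without the MBD2a library s15. *Tle6* was also not called without s14, s16 or s17 (edgeR adjusted p = 0.0743, 0.131 and 0.0573), nor *Padi6* without s16 or s17 (0.114 and 0.0793). *Padi6* and *Nobox* passed the filter through the lines in which they were high, MBD2t among them. In a fit of only MBD2a and MBD2aΔGR 5 members passed, so this count over the members supports nothing by itself.

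Against MBD2aR181C, 5 of the 7 were again called higher in MBD2a, against 15.1% of all genes. *Sohlh1* had a log2 fold change of 4.25 (SE 0.39, edgeR adjusted p = 6.51e-07), or 19-fold, and *Khdc3* one of 3.38 (SE 0.47, adjusted p = 1.86e-05), or 10.4-fold. For *Nobox* the value was 2.46 (SE 0.88, adjusted p = 0.0212), from 6 to 18 reads in MBD2a and 1 to 3 in MBD2aR181C. For *Sohlh2* it was 2.39 (SE 0.78, adjusted p = 0.0163) and for *Tle6* 1.59 (SE 0.62, adjusted p = 0.0402). *Ooep* at 1.46 (-0.15 to 3.08) and *Padi6* at -0.30 (-1.41 to 0.81) were not called. In a fit of only MBD2a and MBD2aR181C 5 members passed the filter, without *Nobox* and *Padi6*. The count over the members therefore supports nothing by itself in this comparison. Without the MBD2aR181C library s19 or s21 the count was 2, *Sohlh1* and *Khdc3*, and without the MBD2a library s15 it was 3. *Tle6* was not called without s14 either (edgeR adjusted p = 0.081), and *Ooep* was called without the MBD2aR181C library s20, at 2.41 (adjusted p = 0.0369). *Sohlh1* and *Khdc3* kept their calls under all alternatives run for both variants (18 for MBD2aΔGR and 19 for MBD2aR181C).

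Between the low lines no member was called by edgeR. In MBD3ΔMBD against MBD3a, where 0% of all genes were called, 0 of the 7 members had an unadjusted p under 0.05 and DESeq2 called none of them. The log2 fold change of *Sohlh1* was -0.33 (95% interval -1.63 to 0.98) and that of *Khdc3* -0.42 (-1.93 to 1.10). In MBD2aΔGR against MBD3a, where 4.26% of all genes were called, 1 member had an unadjusted p under 0.05, *Padi6*, at -2.20 (SE 0.92, edgeR adjusted p = 0.151), from 0 to 2 reads against 3 to 6, and DESeq2 called none. In MBD2aR181C against MBD3a, where 0.00603% of all genes were called, no member had an unadjusted p under 0.05 and DESeq2 called none. *Khdc3* was at 1.03 (-0.26 to 2.31) in MBD2aΔGR and at 1.04 (-0.23 to 2.31) in MBD2aR181C, so a rise of 2.31 on the log2 scale lies within these intervals. For *Sohlh1* the values were -0.62 (-1.97 to 0.73) and 0.12 (-1.07 to 1.31).

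Markers of pluripotent cells moved with several members. The summed level of 8 of 8 pluripotent markers (*Pou5f1*, *Nanog*, *Zfp42*, *Esrrb*, *Tdgf1*, *Utf1*, *Fgf4* and *Dppa4*) was 18.1 to 122 CPM in WT and 232 to 767 CPM in *Mbd3* KO. It was 26.1 to 102 CPM in MBD3a, 18.1 to 34.0 in MBD3ΔMBD, 48.7 to 167 in MBD2aΔGR and 21.6 to 259 in MBD2aR181C, and it was 267 to 503 in MBD2a and 403 to 508 in MBD2t. None of the 8 markers was at 0 in any library. All 8 were called higher in MBD2a and in MBD2t against MBD3a and none between MBD2t and MBD2a. In bulk RNA, more cells of a type and more RNA per cell cannot be told apart.

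Within lines, the library with the most pluripotent marker RNA was also the one with the highest level of *Ooep* in 8 of 8 lines, of *Tle6* and *Khdc3* in 6, of *Sohlh2*, *Nobox* and *Padi6* in 5 and of *Sohlh1* in 4. With 3 libraries per line some such matches arise by chance, and the share over all genes was not taken. The counts are a description only. The MBD2aR181C library s20 and the MBD2a library s13 had a similar marker level, at 259 and 267 CPM, and were set side by side after their values were seen, as single libraries and without a test. They differed in the summed markers of neural cells (1398 and 203 CPM), trophoblast (209 and 559 CPM) and primitive endoderm (47.5 and 158 CPM). They lay closer in those of primordial germ cells (218 and 273 CPM) and granulosa (7.78 and 7.11 CPM). *Tle6* was at 22.4 and 22.8 CPM in them, *Ooep* at 4.37 and 4.00 CPM, *Sohlh2* at 23.7 and 38.3 CPM, *Khdc3* at 4.29 and 16 CPM and *Sohlh1* at 0.912 and 8.40 CPM. The part of pluripotent cells in the differences of the members was not tested. The libraries s03, s08 and s20 had the most pluripotent marker RNA of their lines. Without them, 7 members were called in MBD2a against MBD3a when *Nlrp5*, which then passed the filter, is counted, and 6 in MBD2a against MBD2aR181C. Of 16762 genes, 4981 and 5291 were called in either direction. *Sohlh1*, *Sohlh2*, *Khdc3*, *Ooep* and *Tle6* were highest in s08 and s20 within their lines. Leaving these out lowers those line means by construction, so the counts support nothing by themselves.

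**Figure D3:**
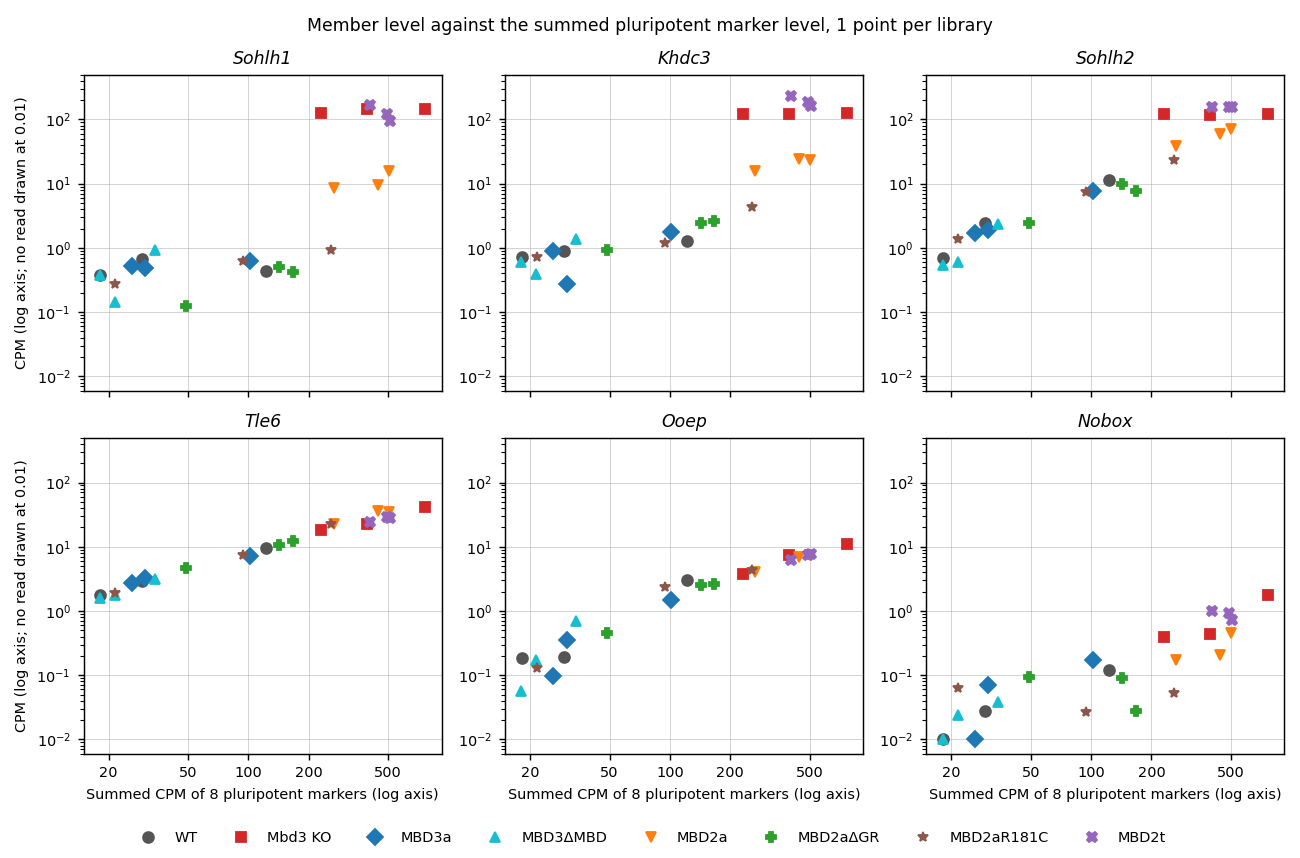
CPM of 6 members (log axis, 0 reads drawn at 0.01) against the summed CPM of 8 pluripotent markers (log axis), with a point for each of the 24 libraries and a symbol for each line. The MBD2aR181C library at 259 and the MBD2a library at 267 on the horizontal axis were at 22.4 and 22.8 CPM of *Tle6* and at 0.912 and 8.40 CPM of *Sohlh1*. These libraries differed in other markers, with neural sums of 1398 and 203 CPM.

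Markers of other cell types were measured in the same libraries. Of 9 neural markers with a row (of 10 named), all 9 were called lower in MBD2a and in MBD2t against MBD3a (all genes 13.2% and 14.4%), with summed levels of 99.3 to 262 and 186 to 207 CPM against 1765 to 2161 CPM. In *Mbd3* KO libraries, also labelled as NPCs, they summed to 150 to 245 CPM and in WT libraries to 1444 to 2458 CPM. In MBD2t against MBD2a, 1 of the 9 was called lower and none higher, where 664 of 16582 genes were called in either direction. The granulosa list, for the somatic cells around the oocyte, summed to 8.99 to 10.9 CPM in MBD3a, 5.16 to 8.94 in MBD2a and 5.14 to 5.51 CPM in MBD2t, and 1 or 2 of its 6 genes were at 0 in each library. Of 4 tested genes, 0 were called higher and 1 lower in MBD2t against MBD3a, and 1 higher, *Amhr2* with 1.58 (SE 0.39), and 2 lower in MBD2a against MBD3a. *Amhr2*, the receptor of anti-Mullerian hormone, was also called higher in MBD2a against MBD2aΔGR, with 2.27 (SE 0.42), and against MBD2aR181C, with 1.43 (SE 0.37), where 1 other gene of the list was called lower. Of the other markers, *Fshr* had 1 read in all 24 libraries and *Cyp19a1* line means of at most 0.0471 CPM. Primitive endoderm markers summed to 853 CPM in the MBD2aΔGR library s18, against 79.8 and 102 CPM in s17 and s16, 48.3 to 212 CPM in MBD2a and 39.9 to 54.1 CPM in MBD3a. Of the 6 markers, 5 were called higher in MBD2aΔGR against MBD3a, where 1.98% of all genes were. Without s18, *Sohlh1* and *Khdc3* were higher in MBD2a than in MBD2aΔGR by 5.13 and 3.65 on the log2 scale. In that fit 6 of the 8 members that then passed the filter were called, as were 3847 of 16763 genes in either direction (3080 of 16582 with s18). Against MBD3a, no member was called in MBD2aΔGR without s18, where 166 of 16763 genes were (706 of 16582 with s18). The part of primitive endoderm cells in the results on MBD2aΔGR was not tested.

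Known targets of the oocyte factors did not share a direction. Of 9 genes in the list of oocyte targets and zona genes 8 had a row and 4 were tested. In MBD2t against MBD3a, *Zp3*, which encodes a zona protein, was called higher by 2.69 (SE 0.78) at 0.747 against 0.115 CPM, and *Kit*, the receptor of the oocyte for a somatic growth factor, by 1.32 (SE 0.21). *Gdf9*, a growth factor of the oocyte, was called lower, with a log2 fold change of -1.68 (SE 0.55) and 0.284 against 0.904 CPM. The median of the 4 was 0.16, and among all genes 17.5% were called higher and 14.4% lower in this comparison.

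Of 15 tested genes in a wider list of maternal-effect and oocyte genes, 9 were called higher and 1 lower in MBD2t against MBD3a (all genes 17.5% and 14.4%), with a median of 1.51 beside -0.04 over all genes. The largest changes were in *Nlrp4f*, an oocyte member of the Nlrp family, with 6.41 (SE 0.76), in *Dazl*, an RNA-binding protein of germ cells, with 3.79 (SE 0.90), and in *Tcl1*, a cofactor of AKT in early embryos, with 3.62 (SE 0.85). *Zbed3*, reported as a partner of the complex, was called lower with -1.06 (SE 0.30). In MBD2a against MBD3a the list gave 8 higher and 1 lower, and in MBD2t against MBD2a none in either direction.

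Among relatives of the members, 4 of 4 tested Padi genes were called higher in MBD2t against MBD3a, where 17.5% of all genes were called higher and 14.4% lower, led by *Padi1* with 5.09 (SE 0.54), *Padi4* with 3.44 (SE 0.57) and *Padi3* with 3.02 (SE 0.53). These 4 were also called higher in MBD2a against MBD3a, MBD2aΔGR and MBD2aR181C, 3 comparisons that share the MBD2a libraries. Of 7 tested Nlrp genes 4 were called higher, *Nlrp4f*, *Nlrp9b* with 4.28 (SE 0.78) and *Nlrp4c* with 2.36 (SE 0.71) foremost, the last at 1.69 against 0.331 CPM. Of 5 tested Tle genes, *Tle2* was called higher with 1.17 (SE 0.28) and *Tle1* lower with -1.55 (SE 0.16), while *Tle3*, the most abundant, had -0.15 (SE 0.15), so that the counts were near these shares of all genes. In the group of *Khdc1*, *Dppa5* and *Ooep* relatives and neighbors, 2 of 7 were called higher, *Dppa5a* with 3.51 (SE 1.22) and *Ddx43* with 2.34 (SE 0.39), which is also near the 17.5% of all genes. In MBD2t against MBD2a, 1 of the 4 Padi genes was called higher, where 3.14% of all genes were. None of the other relatives was called in that comparison.

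The bHLH partners and Id genes went the other way. Of 7 tested, 5 were called lower in MBD2t against MBD3a and none higher (all genes 14.4% and 17.5%), with a median of -1.29. *Id3* and *Id4*, which encode inhibitors that capture bHLH partners, had -2.57 (SE 0.28) and -2.30 (SE 0.42), and *Tcf4*, which encodes such a partner, had -1.85 (SE 0.27). *Tcf3*, the most abundant of the partners, had -0.60 (SE 0.11), under the threshold on the size of the change. In MBD2t against MBD2a none of the 7 was called in either direction, with a median of -0.27. The part of these genes in the level of *Sohlh1* was not tested.

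Likeness to *Sohlh1* and *Khdc3* was measured over the lines. By the root mean square (RMS) difference of 8 line means of log2 CPM, each gene centred on its own mean, the gene most like *Sohlh1* among 16581 others was *Khdc3*, at 0.72. Both genes were chosen for their rise in *Mbd3* KO, and the WT and *Mbd3* KO means are among the 8, so this likeness follows in part from the choice and is a description. Next came *Spib*, an ETS factor of lymphoid cells, at 0.78, *Acp7* at 0.83, *Prl2c3* at 0.95 and *Prl2c2* at 0.96, of which the last 2 are near-identical placental prolactin relatives whose reads could be shared. For *Khdc3* the nearest were *Ciita*, the transactivator of MHC class II genes, at 0.46, *Napsa* at 0.50, *Tbata* at 0.59, *Spib* at 0.62 and *Nlrp4f* at 0.65. *Spib* was at 0.334 CPM in WT, 26.0 in *Mbd3* KO, 0.406 in MBD3a, 3.10 in MBD2a and 35.7 CPM in MBD2t. *Sohlh2* ranked 48 by likeness to *Sohlh1* (RMS 1.38), *Nobox* 374, *Ooep* 530, *Tle6* 1086 and *Padi6* 1839, so the members did not share a single pattern. Over the 24 libraries instead of the line means, 3 of the 5 genes nearest to *Sohlh1* and 4 of the 5 nearest to *Khdc3* were retained.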

How the data were processed

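Poly(A) RNA-seq of 24 NPC libraries was analysed. Per the study's methods, the authors selected poly(A) RNA, made directional single-end libraries and mapped reads to NCBIM37 (mm9) with STAR after trimming by Trim Galore. Reads were counted over GENCODE genes with QuasR. The strand setting of the counting is not given in the sources used here. The deposited values are these raw counts for 25400 genes. ChIP-seq samples were not analysed here. Libraries were assigned to lines by column names and labels.

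Genes were filtered with filterByExpr (16582 left), scaled by TMM and fitted in edgeR 4.0.16 (R 4.3.3) with all libraries and the line as factor. Comparisons used its quasi-likelihood F test. A gene was called at a Benjamini-Hochberg adjusted p under 0.05 over all genes and an absolute log2 fold change over 1. SEs were taken as the size of the log2 fold change over the root of F, and 95% intervals use the degrees of freedom of the fit. An exact permutation test of 3 against 3 libraries cannot give a p under 0.1, so none was run. In simulated counts for MBD2t against MBD3a over 16335 genes, this test recovered 16 of 50 genes changed 2-fold, 43 of 50 at 4-fold, 49 of 50 at 8-fold and 50 of 50 at 16-fold, with 3 false calls. The simulated lines shared 1 mean per gene apart from these changes, and the spread of a gene followed the trend over all genes. In the data 5293 genes were called in this comparison, some members vary more, and MBD2t is a single clone. These rates therefore need not hold for the data.

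The members and lists were chosen with earlier results of these data known. Named genes are the members, the 5 genes most like *Sohlh1* and *Khdc3*, the 3 largest changes past the test of each list in MBD2t against MBD3a, and *Mbd2* and *Mbd3*. *Aldh3b2*, *Fga*, the pluripotent markers, *Amhr2*, *Fshr*, *Cyp19a1*, *Tle3*, *Tcf3*, *Nanos3* and *Dppa3* fall outside this rule and were named after their values were seen. Alternatives were other scalings, filters, sample sets and thresholds, the legacy test, DESeq2 1.42.0 and leaving out each library.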

Additional observations from a re-analysis of the deposited data

Results flagged for a closer look

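*Sohlh1*, *Khdc3* and *Nobox* drew attention because their difference from MBD3a was not the same in MBD2a and MBD2t, by the edgeR test of MBD2t against MBD2a itself. On the log2 scale MBD2t was higher by 3.51 for *Sohlh1*, by 3.18 for *Khdc3* and by 1.62 for *Nobox*. Every MBD2t library was above every MBD2a library for the 3 genes, as for 17.9% of all genes. The genes were picked by their call in this same comparison, so this adds no support. The call of *Nobox* held under 6 of 16 alternatives, and *Nobox* passed the filter through the lines in which it was high, MBD2t among them. Because MBD2t is represented by 1 clone, a difference between clones and one between constructs cannot be told apart.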

How the results depend on the processing

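No paired analysis was possible because the deposited columns carry no replicate numbers. Of 148 recomputed counts of called members, 141 stayed within 1.5 times the value reported. Of the 7 exceptions, 4 came from leaving out 1 library (3 without s15 in MBD2a against either variant, and 2 without s19 or s21 in MBD2a against MBD2aR181C). The others were 2 in MBD2a against MBD2aR181C with a fit of only these lines, 2 with glmTreat in that comparison and 2 with glmTreat in MBD2a against MBD2aΔGR. When each library was left out in turn, the counts ranged from 5 to 6 (MBD2a against MBD3a), 6 to 8 (MBD2t against MBD3a), 2 to 4 (MBD2t against MBD2a), 3 to 6 (MBD2a against MBD2aΔGR) and 2 to 6 (MBD2a against MBD2aR181C), and were 0 in the 3 other comparisons. Counts over 7 include *Nlrp5*, which then passed the filter. *Sohlh1* and *Khdc3* kept their calls in these 5 comparisons under all alternatives run.

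Signs turned only in values that were not called. Leaving out libraries in turn gave log2 fold changes of -1.0 to 0.31 for *Khdc3*, -2.39 to 0.28 for *Ooep* and -1.09 to 0.16 for *Sohlh1* in MBD3ΔMBD against MBD3a, of -0.79 to 0.95 for *Nobox* in MBD2aΔGR against MBD3a, of -1.24 to 0.50 for *Nobox*, -0.30 to 0.50 for *Sohlh1* and -0.062 to 1.77 for *Khdc3* in MBD2aR181C against MBD3a, and for *Padi6* of -0.51 to 0.48 in MBD2a against MBD3a and -0.98 to 0.13 in MBD2a against MBD2aR181C. A fit without s03, s08 and s20, chosen after seeing the data, gave 0.31 for *Khdc3* and 0.28 for *Ooep* in MBD3ΔMBD against MBD3a, 0.95 for *Nobox* in MBD2aΔGR against MBD3a, -0.20 for *Sohlh1* and 0.44 for *Nobox* in MBD2aR181C against MBD3a, and 0.12 for *Padi6* in MBD2a against MBD2aR181C. The cause was not tested. With library size only, the median log2 fold change of all genes was 0.14 in MBD2a and 0.12 in MBD2t against MBD3a, and the member calls were as reported. The counts of all genes called moved more. With glmTreat they were 2572 in place of 4844 (MBD2a against MBD3a), 3236 of 5293 (MBD2t against MBD3a), 138 of 664 (MBD2t against MBD2a), 1061 of 3080 (MBD2a against MBD2aΔGR) and 2043 of 4525 (MBD2a against MBD2aR181C), and with no fold threshold 8801, 9510, 1024, 5755 and 8434. A fit of only MBD2a and MBD2aΔGR gave 1699, and leaving out libraries 393 to 1011 for MBD2t against MBD2a. The 706 calls in MBD2aΔGR against MBD3a became 12 (only these lines) to 1688 (without s16), and the 1 in MBD2aR181C against MBD3a became up to 6 (DESeq2). Without filter, *Nlrp5* was called in MBD2a against MBD3a at 1.41 (edgeR adjusted p = 0.0262). Depth limits *Figla*, *Nlrp5*, *Padi6* and *Nobox*, with at most 3, 15, 24 and 61 reads in a library.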

Other observations

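Markers of primordial germ cells were also higher in the lines with high *Sohlh1*. In MBD2t against MBD3a, 7 of 9 were called higher by edgeR and none lower (all genes 17.5% and 14.4%), with a median log2 fold change of 1.73. Besides *Dazl*, these were led by *Tfap2c* with 3.38 (SE 0.69) at 134 against 12.9 CPM and *Prdm14* with 3.22 (SE 0.78). *Nanos3*, a defining gene of these cells, was not called, with -0.22 (SE 0.28), nor was *Dppa3*, with 1.60 (SE 1.08). *Prdm14* is also expressed in pluripotent cells, and *Tfap2c* is on the trophoblast list as well.

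Trophoblast markers were called higher in 8 of 8 cases in MBD2t against MBD3a, against 17.5% of all genes, with a median of 3.09. *Eomes* had 4.65 (SE 0.74), *Elf5* 3.96 (SE 0.60) and *Hand1* 3.60 (SE 0.75). Their summed level was 1380 to 1539 CPM in MBD2t, 523 to 2107 in MBD2a and 127 to 312 CPM in MBD3a. In MBD2t against MBD2a, 2 of the 8 were called higher and none lower, with a median of 0.70. Of all genes, 3.14% were called higher there. The MBD2a library at 2107 CPM was s15, which also had the highest *Sohlh1* level of its line, at 15.6 CPM, and its highest pluripotent marker sum, at 503 CPM. Trophoblast markers and *Sohlh1* also peaked in the same library in WT, MBD3a and MBD2aR181C, but not in *Mbd3* KO, MBD3ΔMBD, MBD2aΔGR and MBD2t. In *Mbd3* KO the library highest in trophoblast markers, s06 at 2239 CPM, had the lowest *Sohlh1* level, at 125 CPM. The part of trophoblast cells in the level of *Sohlh1* was not tested. Of 6 primitive endoderm markers, 1 was called higher in MBD2t against MBD3a, *Foxa2* with 2.34 (SE 0.58), and 1 lower, *Sox17* with -1.23 (SE 0.47), while 3 were called higher in MBD2a against MBD3a and 5 in MBD2aΔGR against MBD3a, with a median of 3.24.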
